A study of Bos taurus with 45 samples.

Results

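The genes described here were those whose RNA level in the ruminal papillae differed between heifers more than within them and changed little on average between 3 diets. Of 24616 bovine genes measured, 11390 had a mean of 2 or more RPM (reads on a gene per 1000000 reads on all genes) over the 45 samples. In 760 of these the SD of log2(RPM + 1) was at least 0.5, and in 463 of these 760 the mean change from the lowest grain diet to each higher grain diet was also smaller than 0.5 on this log2 scale. These 463 genes were ranked by heifer share, the percentage of the sum of squares of log2(RPM + 1) that lay between the 15 heifers, and the first 150 were taken as the animal-fixed set, with 1 gene kept out of the ranking in advance. Mean level, spread, diet change and heifer share in these samples thus chose the members, and all 4 are given below as descriptions from which nothing is concluded about the members.

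The samples were biopsies of papillae from the ventral sac of the rumen, 1 per heifer on each diet, from 15 Angus-Hereford cross-bred heifers that were all moved in steps from a forage-based to a grain-based diet. By the sample labels the diets held 3% grain on days 1 to 4, 75% grain on days 13 to 16 and 92% grain on days 21 to 29, with 15 samples on each, whereas the article gives slightly lower percentages for the same diets. Control heifers were not analysed here, so the diet and the day of the trial cannot be told apart. The sequencing lanes held 9 samples each with all diets in every lane, but the sources used here do not say which heifers shared a lane, so that heifer and lane cannot be told apart either.

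Ruminal papillae carry a stratified squamous epithelium over a core of connective tissue with vessels. The epithelium absorbs short-chain fatty acids from fermentation and forms the barrier to the rumen contents, and grain feeding is known to shift its metabolism. In cross-bred animals, the RNA level of a gene can also differ lastingly from animal to animal, for example through inherited differences in regulatory sequence, in splicing or in gene copies. Repeated biopsies of the same animal separate differences that stay with the animal over the trial from changes between the diets. They do not show where a lasting difference comes from. In a biopsy, fewer cells of a type and less RNA per cell cannot be told apart. The files give Ensembl gene IDs without symbols, so the members are given by ID or rank, and the papillae were not checked against markers of their cell types. ENSBTAG00000005244 (rank 63) was a member that the text of the article pairs with a name, RASL1A, among genes it lists for the highest grain diet, a RAS-like protein of the small GTPase superfamily. Its level ran from 0.393 to 19.9 RPM over the 45 samples with a median of 7.56, and 80.6% of its sum of squares lay between heifers.

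In units of 1000000 reads (M), the libraries held between 22.5 and 37.1 M reads on genes (median 30.8 M), so that 1 read stood for between 0.0270 and 0.0444 RPM. The heifer labels of 3 libraries went against their resemblance to the rest. So that the genes were chosen without their own data, 150 genes were taken by the same rule in the 12 other heifers. Pearson correlations between libraries were computed over these genes. For this, each gene was centred on its mean over all 15 heifers within each diet and scaled over all 45 libraries. Between the libraries of the 12 heifers, r with the 2 other libraries of the same heifer was at least 0.673 in all 36 libraries, and r with a library of another heifer reached 0.370 at most, as the choice of these genes favours. The library labelled heifer 182 on 3% grain correlated at 0.084 and 0.089 with the 2 other libraries of heifer 182 and at 0.763 and 0.768 with those labelled heifer 286 on 75% and 92% grain. The library labelled heifer 286 on 3% grain correlated at -0.095 and 0.011 with its own heifer and at 0.779 and 0.826 with the libraries of heifer 182 on 75% and 92% grain. The 3% grain libraries of these heifers thus each resembled the higher grain libraries of the other heifer. The library labelled heifer 352 on 3% grain correlated at 0.010 and 0.093 with its own heifer and at no more than 0.174 with any other library. Within each of the 3 heifers, the 75% and 92% grain libraries correlated at 0.769, 0.649 and 0.668, respectively. No label was altered, and the main counts are given with all 15 heifers and without these 3 heifers, an alternative chosen after the data were seen. Heifers left out for disagreement between their libraries raise the remaining agreement by construction, so that these values describe the 12 heifers and are not independent support. No pair of the 45 libraries agreed within sampling noise (the lowest chi-square per degree of freedom was 18.4), so none was counted as a repeat of another.

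**Figure D1:**
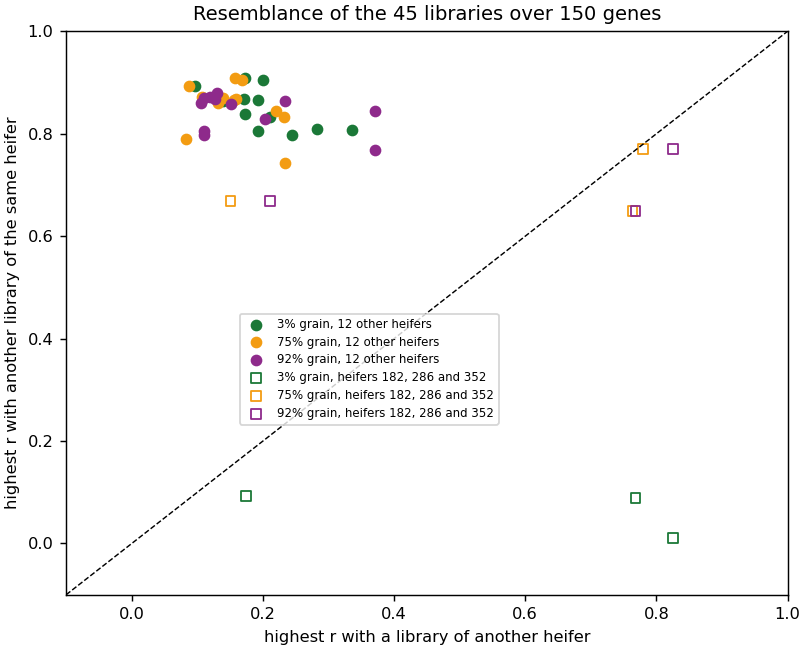
Each point is 1 of the 45 libraries, by its highest Pearson correlation with a library of another heifer (x axis) and with another library of the same heifer (y axis), over 150 genes chosen without heifers 182, 286 and 352. The 36 libraries of the other heifers lie above the dashed line of equality with x values up to 0.370, the 3% grain libraries labelled 182 and 286 lie at the lower right, and the 3% grain library labelled 352 lies low on both axes.

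Across the 150 members, the heifer share ran from 66.4% to 98.2% with a median of 78.7%. It was 70% or more in 126 members, 80% or more in 66, 90% or more in 21 and 95% or more in 7. For comparison, 15 heifers that did not differ would hold 31.8% of the sum of squares on average, because 14 of the 44 degrees of freedom lie between them, and the median over all 11390 genes was 39.7%. The lower limit of the set fell in a continuous range, with 67.3% to 66.4% in the last 10 members and 66.3% to 64.9% in the next 10 genes. The SD between heifer means was 0.65 on the log2 scale in the median member against 0.39 within heifers. Over all genes the medians were 0.15 and 0.21, so that the members also varied more within heifers than genes in general did. In the 313 other genes that passed the filters the medians were 0.43 and 0.52, so that the members varied less within heifers than these. The SD minimum and the ranking by heifer share favour these contrasts. Counting error made up 4.64% of the within-heifer variance of the median member and at most 26.6%.

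**Figure D2:**
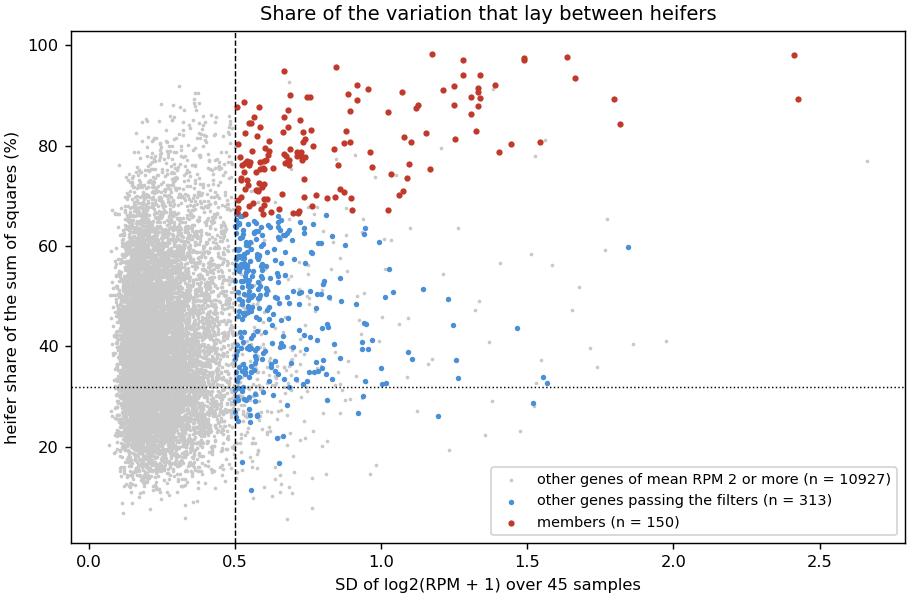
Each point is 1 of the 11390 genes of mean RPM 2 or more, by its SD of log2(RPM + 1) over 45 samples (x axis) and by its heifer share in percent (y axis). The dashed line marks the SD minimum of 0.5 and the dotted line the 31.8% of heifers that do not differ, and the 150 members fill the upper right from 66.4% to 98.2%.

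The members were mostly genes of low to moderate level, as were the other genes that passed the filters. Mean RPM over all samples was 8.19 in the median member, 8.08 in the median of the 313 other genes and 22.3 over all 11390 genes. It was under 5 in 50 members, 10 or more in 65 and 100 or more in 7. A single gene, at rank 34, had a mean of 11945 RPM and ran from 3863 to 21106 RPM. With it, the members held between 0.773% and 2.41% of the reads on genes of a sample. The study counted a gene as expressed on a diet when RPM was over 1 in every heifer. By that criterion on at least 1 diet, 110 of the 150 members passed and 40 did not, against 98.9% of all 11390 genes that passed. Genes with a heifer near zero on every diet cannot pass such a criterion, and 9 members had no read in at least 1 sample.

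The 8 members with the highest heifer share differed in shape. In ENSBTAG00000001801 (heifer share 98.2%), the lowest, median and highest RPM were 0.0351, 20.1 and 24.2 on 3% grain, 0, 19.1 and 32.7 on 75% grain, and 0.0611, 19.3 and 31.9 on 92% grain. A single heifer held the low values on all 3 diets, with 3 reads in 83.8 M over its libraries, and every sample of the 14 other heifers had 7.16 RPM or more. ENSBTAG00000034077 (97.6%) had 0.169, 12.5 and 29.4 RPM on 3% grain, 0.0312, 14.8 and 30.6 on 75% grain, and 0.0682, 13.9 and 30.8 on 92% grain. Here 3 heifers stayed at or below 0.281 RPM in all of their samples and 12 heifers stayed at or above 3.42 RPM. ENSBTAG00000002214 (97.5%) had 0, 4.83 and 14.5 RPM on 3% grain, 0, 1.78 and 12.2 on 75% grain, and 0, 2.99 and 14.8 on 92% grain. In this gene 7 heifers lay at or below 0.581 RPM in every sample and 8 heifers at or above 1.78 RPM.

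In 2 further members, 2 heifers stood below the other 13. ENSBTAG00000037608 (98.1%) had 1.36, 244 and 587 RPM as lowest, median and highest on 3% grain, 1.47, 262 and 619 on 75% grain, and 1.62, 254 and 709 on 92% grain. The low values all came from 2 heifers, at or below 2.90 RPM in every sample, and all samples of the other 13 heifers were at or above 33.4 RPM. These were heifers 182 and 286, whose 3% grain libraries each resembled the other heifer, and without them and heifer 352 the heifer share was 94.2%. ENSBTAG00000010060 (97.0%) had 0.371, 25.6 and 42.9 RPM on 3% grain, 0.963, 26.9 and 56.4 on 75% grain, and 0.648, 23.3 and 71.8 on 92% grain. Again 2 heifers were low, at or below 1.97 RPM, and the other 13 heifers did not fall below 15.5 RPM on any diet.

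In the remaining members of the 8, the sets of heifers lay closer together. ENSBTAG00000022590 (97.1%) had 1.31, 16.6 and 30.7 RPM on 3% grain, 1.63, 15.6 and 33.5 on 75% grain, and 1.65, 10.8 and 26.7 on 92% grain, with 6 heifers at or below 6.07 RPM and 9 at or above 10.4 RPM. ENSBTAG00000033429 (95.6%) had 0.406, 3.38 and 7.47 RPM on 3% grain, 0.520, 3.85 and 6.71 on 75% grain, and 0.0878, 3.23 and 7.55 on 92% grain, with 4 heifers at or below 0.729 RPM and 11 at or above 1.69 RPM. ENSBTAG00000016319 (94.9%) had 4.14, 11.6 and 15.4 RPM on 3% grain, 4.47, 12.6 and 20.6 on 75% grain, and 4.47, 12.7 and 15.5 on 92% grain. The heifers of ENSBTAG00000016319 fell into sets of nearly equal size, 7 at or below 6.64 RPM and 8 at or above 11.6 RPM, with an SD of 0.18 within heifers on the log2 scale. In each of these 8 genes the range of 1 diet overlapped that of the other diets almost completely, which the limit on the diet change in the rule favours. Without heifers 182, 286 and 352, the heifer share of the 8 genes ran from 94.1% to 99.0%.

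**Figure D3:**
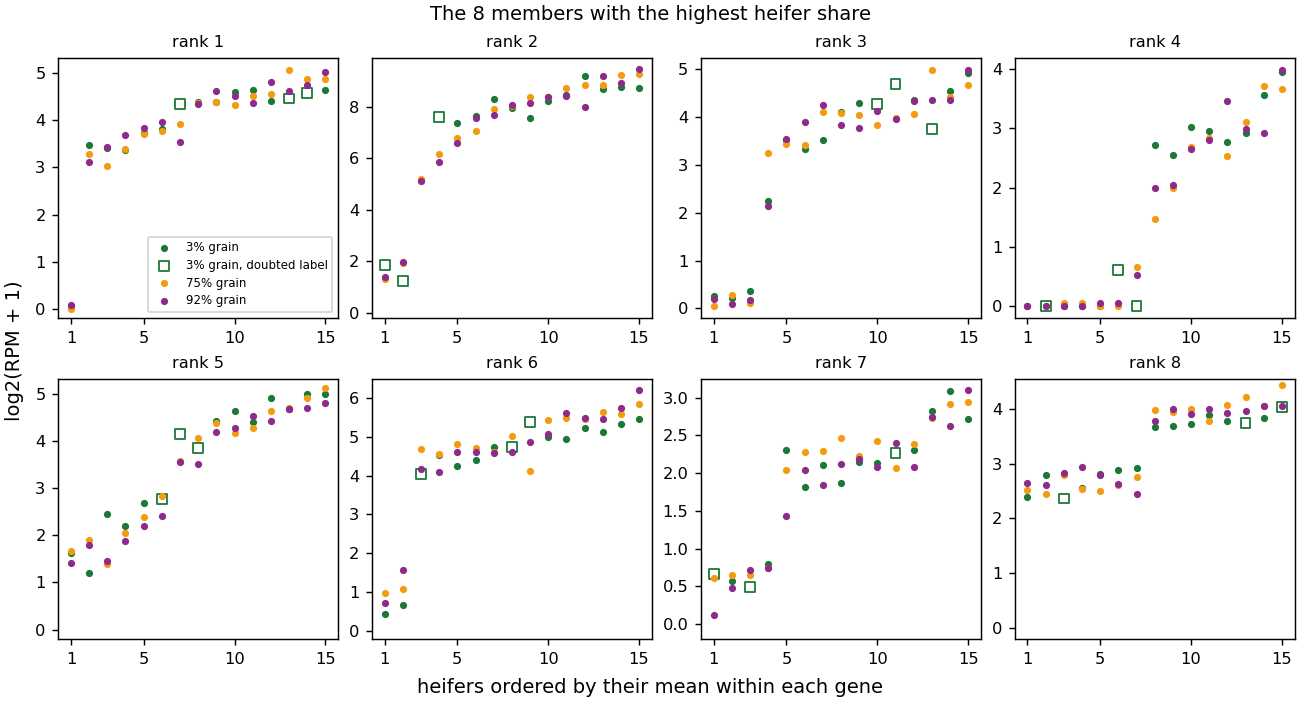
The 8 panels plot log2(RPM + 1) (y axis) of ranks 1 to 8 in the 15 heifers, ordered within each gene by their mean (x axis), with 1 point per diet. Open squares are the 3% grain libraries of heifers 182, 286 and 352, and the steps between sets of heifers hold on all 3 diets, from 1 low heifer at rank 1 to 7 low heifers at ranks 4 and 8.

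In 8 of the 150 members, at least 1 heifer was near zero (under 0.1 RPM on all 3 diets) while at least 1 other was at 1 RPM or more on all 3 diets. Over all 11390 genes 9 did so (0.0790%), so that 1 such gene lay outside the set. The members were those at ranks 1, 4, 9, 10, 13, 19, 26 and 73. The number of heifers near zero was 1 at rank 1, 5 at rank 4, 7 at rank 9, 1 at rank 10, 4 at rank 13, 6 at rank 19, 5 at rank 26 and 11 at rank 73. These heifers had few reads in deep libraries. At rank 9, the 21 near-zero samples held 5 reads on the gene in 648 M, while the 6 heifers that expressed it had 1.99 to 11.0 RPM. At rank 19, the 18 near-zero samples held 9 reads in 528 M, and the 8 expressing heifers had 2.30 to 15.5 RPM. At rank 10, no read fell on the gene in 3 samples with 79.8 M reads, and 3 counts would correspond to 0.0376 RPM as the limit, with counting error only. The gene at rank 73 was at 1 RPM or more on all 3 diets in 1 heifer only, at 18.1 to 25.2 RPM. In 11 heifers it was near zero, with 6 reads in 1007 M, and 3 heifers lay in between. Among the 12 heifers without 182, 286 and 352, 10 were near zero, 1 was expressing and 1 lay in between, so these counts depend on libraries with doubted labels. Without heifers 182, 286 and 352, 8 members again met these criteria and 9 of all genes did (0.0790%). At ranks 4 and 19 the 12 remaining heifers then fell entirely into near-zero and expressing heifers, 4 and 8 at rank 4 and 6 and 6 at rank 19.

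A gap, in which every sample of one set of heifers lay above every sample of the rest, occurred in 63 of the 150 members (42%) and in 2.52% of all 11390 genes. The rule favours gaps, so that the difference is a description. With all 15 heifers, the smaller set was a single heifer in most of these members, below the rest in 15 members and above the rest in 22. Sets of 2 or 3 heifers stood apart in 16 members and sets of 4 to 7 heifers in 10. The gap was 1 log2 unit or more in 8 members, against 0.0790% of all genes. In 4 of these 8 members the smaller set lay below, at ranks 1, 2, 3 and 6, and in the other 4 it lay above, at ranks 10, 12, 45 and 104. At rank 12 the highest heifer had at least 25.5 RPM in each sample and the other 14 heifers had 6.13 RPM or less. At rank 45 the corresponding limits were 291 and 115 RPM, and at rank 104 they were 83.1 and 32.2 RPM. Without heifers 182, 286 and 352, 100 of the 150 members had a gap, against 4.15% of all genes. The smaller set then held 4 to 6 heifers in 29 members, so the set sizes depended on these 3 heifers. A gap of 1 log2 unit or more then occurred in 24 members, against 0.237% of all genes. Fewer heifers leave more room for gaps in any gene, and leaving out heifers for disagreement between their libraries favours gaps as well. The share of each in the rise was not tested.

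The members' differences were spread over the heifers. A single heifer held over 50% of the between-heifer sum of squares in 12 members (8% of the members, against 4.57% of all genes), being the highest heifer in 5 and the lowest in 7, and these were 9 different heifers. Each of the 15 heifers lay farthest from the mean in at least 1 member and in at most 16, with a median of 11. When the selection was repeated without each heifer in turn, at least 129 of the 150 members were chosen again, and 73 members were chosen in all 15 repeats. Of the 20 genes at the top of the ranking, 18 were chosen in all 15 repeats. The absolute correlation of a gene with the reads per heifer was 0.177 in the median member and 0.165 over all genes.

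Whether the levels of such genes in the heifers agreed on a diet that did not choose them was examined by applying the rule to 2 diets and reading the third. Of 150 genes chosen on 75% and 92% grain, 48 had a Pearson r of 0.8 or more over the 15 heifers between 3% grain and the mean of the other diets (32%), against 1.42% of all 11390 genes. With 75% grain held out, 83 of 150 genes did so (55.3%) against 3.12% of all genes, and with 92% grain held out, 76 of 150 (50.7%) against 2.25%. The median r was 0.723, 0.814 and 0.804 in the chosen genes and 0.239, 0.344 and 0.239 in all genes. The correlation was positive in 148, 145 and 148 of the 150 genes. Among genes that passed the filters on the 2 diets but ranked below 150, the median r was 0.383, 0.424 and 0.403. Without heifers 182, 286 and 352, the counts rose to 107, 115 and 114 of 150 and those of all genes to 4.29%, 6.95% and 4.08%. The medians were then 0.879, 0.886 and 0.880 in the chosen genes. These heifers were left out for disagreement between their libraries on different diets, which favours this rise, so it is a description only. The 3 held-out diets thus ran from 107 to 115 genes in the 12 heifers and from 48 to 83 in all 15, with 3% grain lowest in both. Pearson r does not measure order and can rest on a few extreme heifers. At a Spearman rho of 0.8, which reads only the order, 23, 55 and 61 genes qualified in the 15 heifers with 3%, 75% and 92% grain held out. The points of each correlation are 15 or 12 heifers with 1 library per diet, and no p is given.

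**Figure D4:**
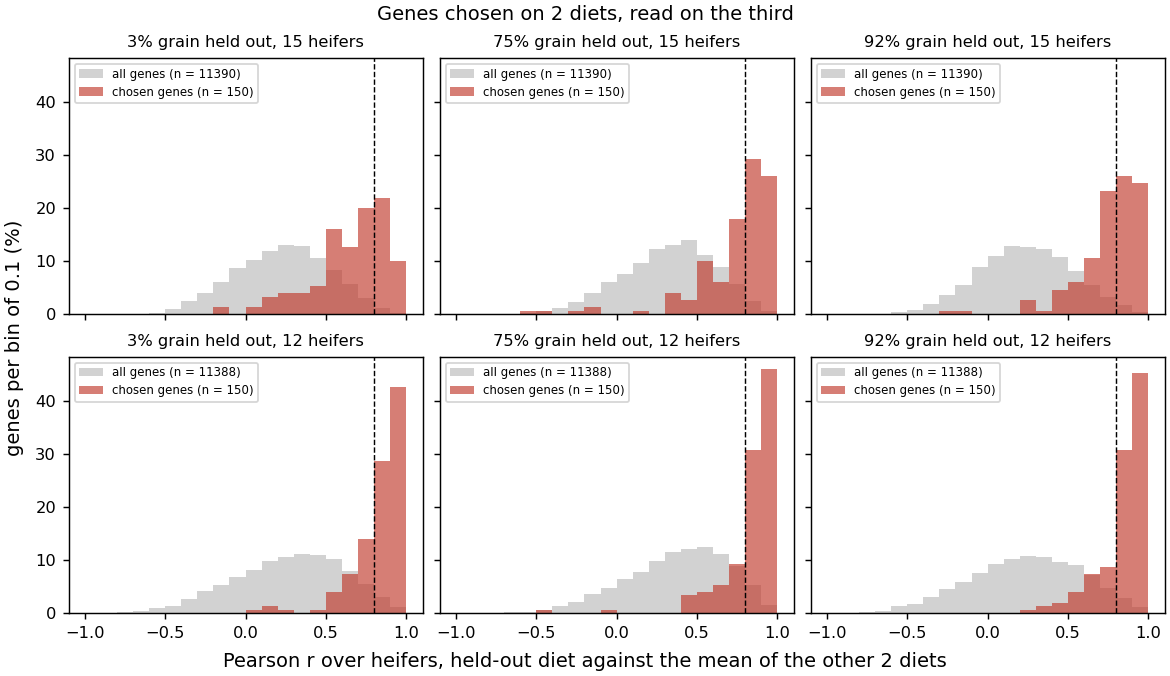
Each panel shows the distribution of Pearson r over heifers between the held-out diet and the mean of the other 2 diets (x axis), as the percentage of genes per bin of 0.1 (y axis), in red for 150 genes chosen on the other 2 diets and in grey for all genes of mean RPM 2 or more. The upper panels hold all 15 heifers and the lower panels the 12 heifers without 182, 286 and 352, where 107, 115 and 114 of the chosen genes lie at or above the dashed line at 0.8.

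Over the 150 members themselves, for which all diets were used in the choice, the median r over 15 heifers was 0.702 between 3% and 75% grain, 0.716 between 3% and 92% grain and 0.843 between 75% and 92% grain. Pearson r was above 0 in all 150 members for each pair of diets. Spearman rho had lower medians of 0.657, 0.663 and 0.784, and its lowest values over the members were -0.025, -0.093 and -0.007. In 29 members r was 0.8 or more in all 3 pairs, against 0.351% of all genes. Without the 3 heifers the medians were 0.858, 0.851 and 0.867, and 75 members reached 0.8 in all 3 pairs, against 1.31% of all genes. The heifer share of the same 150 members rose in 132 of them when these heifers were left out, and its median went from 78.7% to 85.8%, which their removal for disagreement favours. In the 12 heifers alone, 122 of the 150 members were chosen again by the rule.

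**Figure D5:**
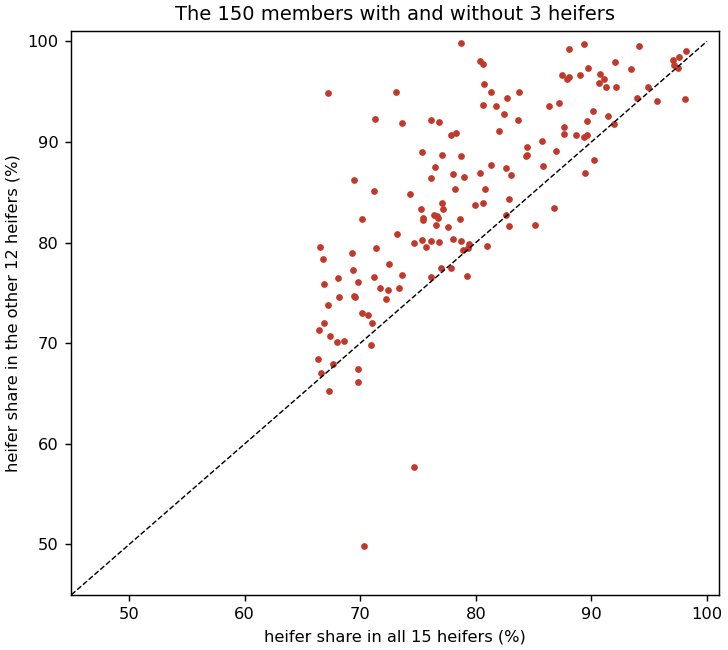
Each point is 1 of the 150 members, by its heifer share in all 15 heifers (x axis, percent) and in the 12 heifers without 182, 286 and 352 (y axis, percent). The dashed line marks equal shares, and 132 members lie above it.

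Few pairs of members varied closely together, at about the rate of the other genes that passed the filters. Among the 11175 pairs of members, 6 pairs (0.0537%) had a Pearson r of 0.9 or more over the 15 heifer means, close to the 0.0512% of pairs among the 313 other genes that passed the filters. No pair had an r of -0.9 or less, and 138 members were in no pair at 0.9 or more. Without heifers 182, 286 and 352, 8 pairs reached 0.9. The closest pair, at ranks 26 and 30, had an r of 0.994 over the 15 heifer means and at least 0.991 within each diet. Its first gene had a mean of 5.27 RPM and was near zero in 5 heifers, whereas the other had a mean of 75.8 RPM and fell no lower than 23.1 RPM. Ranks 57 and 62 followed with an r of 0.983, ranks 6 and 41 with 0.958, ranks 37 and 76 with 0.955, ranks 2 and 25 with 0.944 and ranks 61 and 143 with 0.912. The strongest opposed pair, at ranks 48 and 58, had an r of -0.863. The first principal component of the scaled heifer means held 16.2% of the variance of the members and 26.6% of that of the 313 other genes. Genes that lie next to each other or resemble each other in sequence can share reads in the counting, and which pairs do was not determined here.

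The diet comparisons bear on the members only through the rule, which capped their change and ranked them by differences between heifers. The limma fits were first run without the heifer as a block, which leaves those differences in the error. The counts of members called are thus limited in advance and nothing is read from them. From 3% to 75% grain, the members changed by between -0.44 and 0.47 on the log2 scale with a median of 0.03, and from 3% to 92% grain by between -0.48 and 0.49 with a median of 0.06. In limma fits on log2(RPM + 1), 0 of the 150 members passed a Benjamini-Hochberg adjusted p of 0.05 between 3% and 75% grain, where 20.0% of all 11390 genes did (2061 higher and 213 lower on 75% grain, or 712 and 810 after TMM scaling, which corrects for the makeup of the libraries). Between 3% and 92% grain 0 members passed and 17.8% of all genes did (1693 higher and 331 lower, or 1051 and 922 after TMM scaling), and between 75% and 92% grain 0 members and 0 genes passed. At an unadjusted p under 0.05, 3, 5 and 0 members and 3886, 3438 and 1301 genes passed in the 3 limma comparisons, and edgeR without the block also called 0 members in each. Without heifers 182, 286 and 352, limma again called 0 members in each comparison, with 15.4%, 18.8% and 0 of all genes called.

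The heifer as a block takes the lasting difference between animals out of the error. With it, limma called 19 members (12.7%) between 3% and 75% grain (14 higher and 5 lower on 75% grain) where it called 27.3% of all genes. Between 3% and 92% grain it called 16 members (10.7%, 13 higher and 3 lower) where it called 20.2% of all genes. Between 75% and 92% grain it called 1 member (0.667%), which was lower, where it called 0.694% of all genes. The split between higher and lower calls was different with edgeR, whose scaling corrects for the makeup of the libraries. With the block, edgeR called 9 members (6%, 4 higher and 5 lower) between 3% and 75% grain, against 20.0% of all genes (1116 higher and 1164 lower). Between 3% and 92% grain it called 13 members (8.67%, 9 higher and 4 lower), against 20.8% of all genes (1331 higher and 1035 lower). Between 75% and 92% grain it called 1 lower member (0.667%), against 1.40% of all genes. The block pairs libraries by their heifer labels. Without heifers 182, 286 and 352, the blocked limma fits called 33, 29 and 2 members (22%, 19.3% and 1.33%), where they called 25.6%, 21.3% and 1.61% of all genes.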

How the data were processed

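RNA of 45 samples of ruminal papillae (15 heifers, 3 diets) was sequenced on the HiSeq 2000. The authors aligned paired reads to UMD 3.1 with Tophat 2.0.10, counted reads per Ensembl gene with htseq-count and deposited RPM, 1 file per sample, each summing to 1000000. All RPM values were whole multiples of the value of 1 read (tolerance 0.01 read), which gave the depth and, as an alternative, counts for edgeR. Diets and heifers came from the labels. The ruminal pH groups of the article are not in the labels and were not used.

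The set followed the stated rule, with a pseudocount of 1. The members, lists and thresholds were chosen with earlier results of these data known. Diets were compared with limma 3.58.1 (variance trend, Benjamini-Hochberg adjustment over 11390 genes, adjusted p under 0.05), as RPM are not counts, and alternatively with edgeR 4.0.16, in R 4.3.3. The limma step recovered the changed genes in simulated data. These held no differences between heifers and had larger changes than the rule allows, so they do not show how well changes in the members are detected. The labels give 1 animal ID to the 3 libraries of a heifer, which pairs them. Over genes that are not members, deviations from the diet means correlated at 0.333 in the median pair of samples of a heifer and at -0.039 between heifers. The lowest r within a heifer was -0.126, and only 29 of the 45 samples were nearest to a sample of their own heifer over these genes. Other steps used Python 3.11.15 with numpy 2.4.6 and pandas 2.3.3.

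Genes were to be named in full for ranks 1 to 20, but genes without a symbol were limited to 8 IDs, here ranks 1 to 8, beside the gene that the article names. Of the 24616 IDs 0 matched the reference table, so planned gene lists, cell type markers, neighbours and sequences were not analysed here.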

Additional observations from a re-analysis of the deposited data

How the results depend on the processing

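Every setting kept at least 100 of the 150 members except selection without an SD minimum, which kept 70. Without each heifer in turn, at least 129 members were kept and the median heifer share was 77.3% to 81.1%. The median share was 82.7% without a filter on low values, 72.0% at a mean RPM of 5 or more, 84.3% without an SD minimum, 92.6%, 83.1% and 83.1% without the 3%, 75% and 92% grain diet (using 2 diets raises the share by construction, and the 3 libraries with doubted labels are in the 3% grain diet), and 85.2% without heifers 182, 286 and 352. With near zero set below 0.5 RPM, 21 members qualified in place of 8. A gap of 0.5 log2 gave 18 members, one of 1.5 gave 5 and the 12 heifers gave 24, in place of 8. At a Spearman rho of 0.8, 23 and 55 genes qualified with 3% and 75% grain held out in place of 48 and 83. At a Pearson r of 0.8 without the 3 heifers, 107 qualified with 3% grain held out. At a rho of 0.9, 3 pairs of members qualified in place of 6. The gap and 3-heifer alternatives were chosen after the data were seen. Over all genes, the replicate block with limma gave 3115, 2305 and 79 calls in place of 2274, 2024 and 0, and without the 3 heifers 2913, 2426 and 183. edgeR gave 1492 between 3% and 75% grain, and between 75% and 92% grain 5, or 159 with the replicate block, and TMM scaling gave 9 there. The cause of these differences was not tested. Depth limits the near-zero genes: 1 read is worth up to 0.0444 RPM.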

Other observations

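Outside the set, 483 further genes of mean RPM 2 or more had a heifer share at or above the 66.4% of rank 150. The minimum SD kept out 466 of these and the limit on the diet change 17. The 466 genes were more highly expressed than the members, with a mean RPM of 30.5 in the median gene, and varied less, with an SD of 0.28 on the log2 scale over the 45 samples. Their heifer share reached 91.9%, with 80% or more in 69 genes and 90% or more in 3, and 106 of them had a gap between 2 sets of heifers. In the median gene of the 466 the SD was 0.24 between and 0.17 within heifers on the log2 scale.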
